A study of Mus musculus with 7 samples.

Results

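The 85 ribosomal protein genes were taken by symbol from the protein-coding genes of the mouse RefSeq annotation, as those that start with Rpl or Rps followed by a number, without Rps6k kinase genes and symbols with -ps. They stand among 21900 protein-coding genes. By symbol the list holds 51 genes of the large subunit series (Rpl) and 34 of the small subunit series (Rps). It includes at least 11 paralogs, retrocopies or partners, such as Rps27l, Rpl3l, Rpl10l and Rps19bp1, a binding partner of a ribosomal protein rather than a subunit. The 11 were taken by the ending of the symbol, with Rps19bp1 added, and do not hold Rps23rg1. JUNB was mapped by CUT&RUN in iMGT-Myh6-eGFP mouse embryonic fibroblasts, a line in which doxycycline switches on MGT (Mef2c, Gata4 and Tbx5, factors of heart development) and which by its name carries a Myh6-eGFP reporter. Cells of the 2 siControl and 2 siChst7 libraries were collected at day 1 after induction, and all 4 libraries had doxycycline at 1 µg/mL. Titles and treatment labels name siChst7, an siRNA against a chondroitin sulfate sulfotransferase, whereas the treatment protocol names siJunb and siH1f0 beside siControl. The series also has 3 IgG libraries (1 siControl, 2 siChst7), not analysed here, and no value below is set against them. Titles number the libraries as biological replicates but do not mention separate cultures, so p-values measure only how these 4 samples spread, possibly for technical reasons.

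Ribosomal proteins form the large and small subunits of the cytoplasmic ribosome together with ribosomal RNA. Their genes are short, active in nearly every cell, and kept in balance mainly through translation of mRNAs that begin with a pyrimidine tract under mTOR control. JUNB is a subunit of AP-1, a factor that in fibroblasts is known to work largely from enhancers away from promoters. Promoters of highly active genes are open chromatin, where a nuclease-based assay can release fragments without the mapped protein. Ribosomal protein genes therefore pose the question of how much JUNB signal stands at promoters of constitutively active genes.

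The 4 lists held 4735 to 10163 peaks, the longest being siChst7 replicate 1. Joining all peaks that share 1 bp or more gave 12655 regions, and 11016 of these were given to the protein-coding gene with the nearest end within 100 kb, called the owner below. The deposited lists measure no expression and no read depth per library, although the labels state 30 M reads for each. Of the marker genes fixed for cell types, 6 of 9 fibroblast, 1 of 6 cardiomyocyte, 3 of 4 endothelial and 3 of 4 macrophage genes owned a region. Of all protein-coding genes 25.1% did. These counts tell nothing of which cells were present.

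Few ribosomal protein genes owned a JUNB region, and fewer owned one that was called in every library. In any of the 4 libraries 14 of 85 did (16.5%, 95% interval 9.31 to 26.1 by the exact Clopper-Pearson method), against 25.1% of all protein-coding genes. The interval holds the share of all genes. In both siControl libraries 4 members owned a region (Rps14, Rps15a, Rpl10a and Rpl24), against 11% of all genes. Rpl24 counts here only through a region that was as near to an end of Zbtb11 as to its own. In both siChst7 libraries 2 did (Rps14 and Rps15a), against 11.3%. These same 2 genes owned a region in all 4 libraries, which is 2.35% of the members (exact interval 0.286 to 8.24) against 8.32% of all genes. Stricter peak sets left fewer. With each list cut to its 4735 best peaks by p-value, 9 members owned a region in any library (10.6% against 18.8%). Then 1 each owned one in both siControl, both siChst7 and all 4 libraries, the last against 6.97% of all genes. When regions were given to the nearest annotated start in place of the nearest end, only the 66 members with such a start could own one. Of these 66, 15 owned a region in any library (22.7%), against 26.9% of all genes with an annotated start. In all 4 libraries 4 of the 66 had one, against 8.87%. With regions given to the nearest end within 20 kb, the any-library shares were 16.5% of the 85 members and 19.5% of all genes.

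The 71 members without a region included Rps6, whose protein is the substrate of the S6 kinases, Rpl5 and Rpl11, whose proteins bind the p53 ligase Mdm2, and Rps19 and Rps24, genes known from inherited anaemia. By series, 9 of 51 Rpl and 5 of 34 Rps genes owned a region. Ribosomal protein genes are compact, with a median length of 3.17 kb against 17.1 kb for all protein-coding genes, and a median of 15.6 kb of genome lay nearest to their ends against 46.4 kb. Per length of that genome the members held 8.46 regions per Mb and all genes 6.49, so the share of genes with a region was lower while the density of regions was not. Among the 42 members with less than the median length of nearest genome 5 owned a region, and among the others 9.

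Only 21 regions belonged to the members, and 16 of these (76.2%, exact interval 52.8 to 91.8) were called in 1 library, against 46.8% of all owned regions. A further 1 was called in 2 libraries, 2 in 3 and 2 in all 4. By library, siControl replicate 1 and siChst7 replicate 1 each held 6 of the regions found once, and the other libraries 2 each. Over all genes, siControl replicates 1 and 2 held 906 and 645 owned regions found once. SiChst7 replicates 1 and 2 held 3233 and 370. Most of the 33 member peaks had low fold enrichments within their lists, as 23 lay below the median fold of all peaks of their list. In the top 10% lay 3, which is near the share of peaks at large. The fold is the authors' value for a peak's height over local background and is used here to describe and rank peaks within a list.

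**Figure D1:**
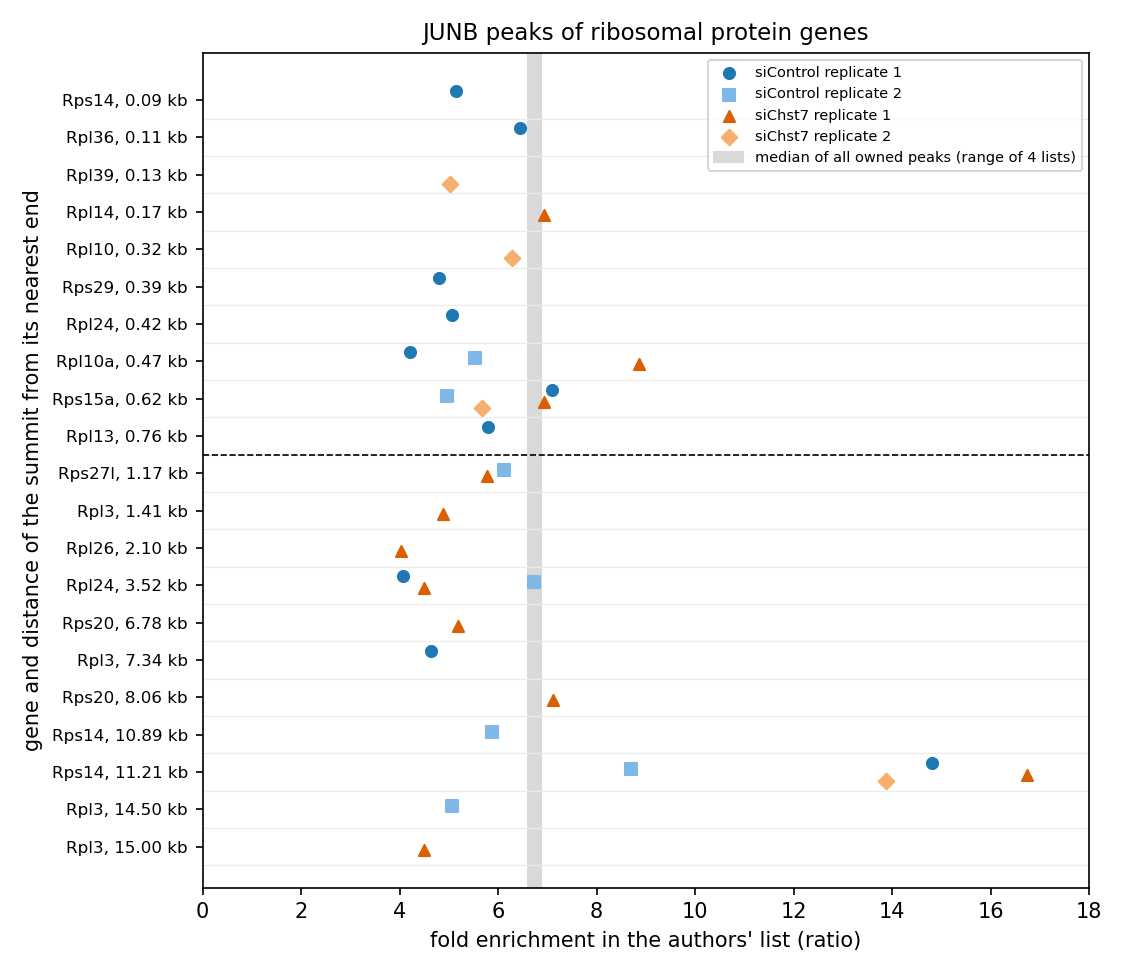
Fold enrichment (authors' ratio, horizontal axis) of the peaks in the 21 regions of ribosomal protein genes, ordered from the top by the distance of the summit from the gene's nearest end in kb. Each marker is the best peak of 1 library, the dashed line separates the 10 regions within 1 kb of an end from the others, and the grey band spans the median fold of all owned peaks in the 4 lists. Most regions have a single marker to the left of the band, and the Rps14 region at 11.21 kb stands apart with folds of 8.70 to 16.7.

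The region with the highest folds belonged to Rps14, which encodes a small subunit protein, but lay far from it. It covered chr18:60762506-60764213 (mm10), 11.2 kb from the nearest end of Rps14, inside no protein-coding gene, and 14.3 kb from the next gene, Ndst1, a heparan sulfate sulfotransferase. Its fold was 14.8 and 8.70 in siControl and 16.7 and 13.9 in siChst7, in replicate order. It ranked 447, 1550, 526 and 316 in the 4 lists by p-value. All 3 member peaks in the top 10% of their list's fold came from this region. Rps14 had 2 other regions, each in 1 library: one 93 bp from the gene with a fold of 5.15 in siControl replicate 1, and one 10.9 kb away with a fold of 5.87 in siControl replicate 2.

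Rps15a, another small subunit gene, owned the single region that was both at a gene end and in all 4 libraries. It covered chr7:118104593-118105188, within the gene body, 625 bp inside the far end and 11.1 kb downstream of the annotated start. The folds were 7.09 and 4.97 in siControl and 6.92 and 5.68 in siChst7. These are ordinary values: the median of all owned peaks was 6.61 to 6.87 in the 4 lists. The groups overlapped, with siControl replicate 1 highest and siControl replicate 2 lowest.

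The members' other regions in more than 1 library belonged to Rpl10a, Rpl24 and Rps27l. Rpl10a, a large subunit gene, had a region 472 bp upstream of its first annotated start (chr17:28327637-28328418) with folds of 4.22 and 5.52 in siControl and 8.86 in siChst7 replicate 1. It was not in the list of siChst7 replicate 2. Another region in all 4 lists, with folds of 7.57 to 17.0, lay 9.95 kb from Rpl10a and nearer to Tead3, which encodes a Hippo pathway transcription factor.

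A region of Rpl24, whose large subunit protein lies at the interface of the subunits, stood 3.52 kb beyond the gene and inside its neighbour Zbtb11 (chr16:55974706-55975742). The region's summit was equally far from an end of Zbtb11, and the tie went to the end at the lower coordinate. The folds there were 4.07 and 6.72 in siControl and 4.49 in siChst7 replicate 1. Rps27l, a p53-induced paralog of Rps27, had a region in siControl replicate 2 (fold 6.11) and siChst7 replicate 1 (fold 5.77). The region of Rps27l (chr9:66945622-66946009) lay 1.17 kb inside the outer gene end and 288 bp upstream of an annotated start, so it counts at a start but not at a gene end.

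Away from gene ends, Rpl3, Rps14 and Rps20 each had more than 1 region. Rpl3, whose protein lies close to the peptidyl transferase centre, owned 4 regions, more than any other member. They stood at 1.41 kb (fold 4.88, siChst7 replicate 1), 7.34 kb (4.64, siControl replicate 1), 14.5 kb (5.07, siControl replicate 2) and 15.0 kb (4.49, siChst7 replicate 1). Each was in 1 list, and no 2 libraries shared a region of Rpl3. Rps20, a small subunit gene, owned regions at 6.78 kb (fold 5.19) and 8.06 kb (fold 7.12), both in siChst7 replicate 1 alone.

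Regions of ribosomal protein genes lay at gene ends more often than JUNB regions at large. Of the 21 regions, 10 had their summit within 1 kb of the gene's end (47.6%, exact interval 25.7 to 70.2), against 13.9% of all owned regions. The 10 regions belonged to 10 genes, 11.8% of the members against 6.41% of all genes with such a region. A further 7 regions lay 1 to 10 kb and 4 lay 10 to 100 kb away. The members were Rps14, Rpl36, Rpl39, Rpl14, Rpl10, Rps29, Rpl24, Rpl10a, Rps15a and Rpl13, at 93 to 761 bp in that order. Just outside the window were the regions of Rps27l at 1.17 kb and of Rpl3 at 1.41 kb. Of the 10, 8 were called in 1 library (80%, exact interval 44.4 to 97.5), against 56% of all regions at gene ends.

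These single-library regions at ends had folds of 4.79 to 6.92. SiControl replicate 1 alone held those of Rps14 (5.15), Rpl36 (6.44), Rps29 (4.79), Rpl24 (5.07) and Rpl13 (5.80). SiChst7 replicate 1 alone held that of Rpl14 (6.92), and siChst7 replicate 2 alone held those of Rpl39 (5.02), a protein of the exit tunnel wall, and Rpl10 (6.28), a protein that joins the large subunit late in its assembly. The region of Rpl36 also lay 216 bp from the end of Micos13, a nuclear gene for a mitochondrial protein, and was the only 1 of the 10 within 1 kb of another protein-coding gene end. Over the 15 member peaks at gene ends the median fold was 5.68 (range 4.22 to 8.86), against 6.32 over all peaks at gene ends and 6.77 over all owned peaks elsewhere. Their median width was 283 bp against 362 bp for all peaks at gene ends.

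Compact genes have less genome away from their ends. Of the genome nearest to the members, 11.7% lay within 1 kb of an end, against 4.66% over all genes. Within that 1 kb the members held 34.3 regions per Mb (10 regions, exact Poisson 95% interval 16.4 to 63.1), and all genes 19.3 (18.4 to 20.3). Farther out the members held 5.02 per Mb (2.51 to 8.98) and all genes 5.86 (5.74 to 5.98). Both intervals of the members hold the density of all genes, so neither difference exceeded the counting error of 10 and 11 regions. Regions were denser at ends than away from them for all genes and for the members.

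**Figure D2:**
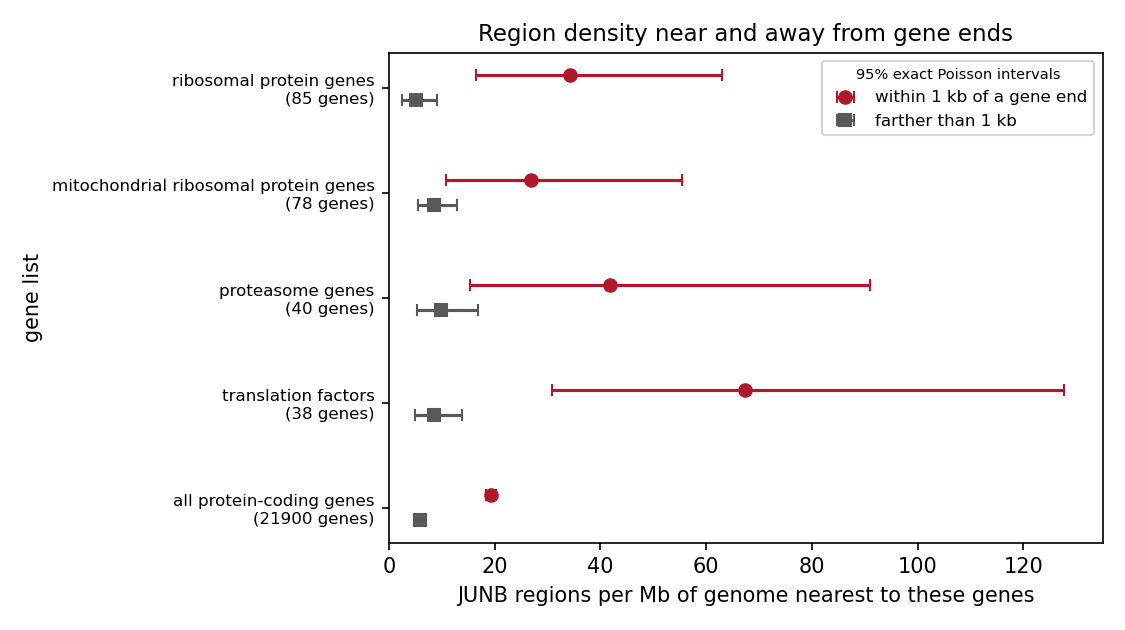
JUNB regions per Mb of genome nearest to the genes of each list (horizontal axis), for genome within 1 kb of a gene end (circles) and farther away (squares), with exact Poisson 95% intervals that cover counting error only. Ribosomal protein genes stand at 34.3 and 5.02 regions per Mb and all protein-coding genes at 19.3 and 5.86, and every list drawn is denser at gene ends than away from them.

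Counted by gene, whichever gene owned the region, 10 of 85 members (11.8%, exact interval 5.79 to 20.6) had a summit within 1 kb of one of their own ends, against 7.37% of all genes. For regions in all 4 libraries this was 1 member (1.18%) against 1.12%. The members' share in any library was above that of all genes at each window, from 9.41% against 5.34% at 500 bp to 23.5% against 21.3% at 10 kb. With regions in all 4 libraries the members' share was below that of all genes at every window drawn except 1 kb, for example 2.35% against 5.36% at 10 kb. The lead at 1 kb rested on siControl replicate 1: without this library 5 members remained (5.88%), against 6.67% of all genes. With lists of 4735 peaks each, 5 members (5.88%) stood against 4.28%.

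**Figure D3:**
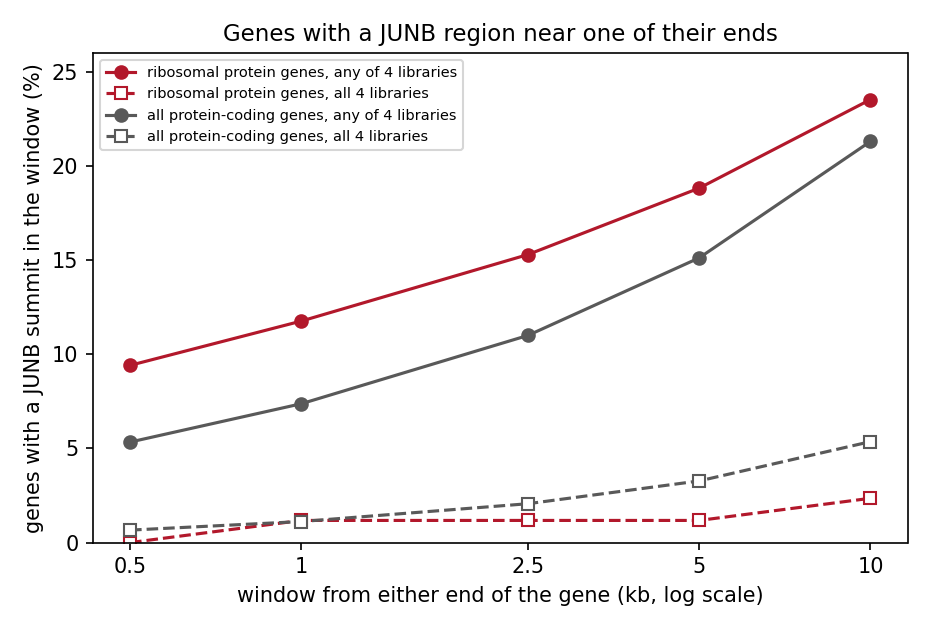
Share of genes (vertical axis, %) with a JUNB summit within a window from either gene end (horizontal axis, kb, log scale), for the 85 ribosomal protein genes and all 21900 protein-coding genes. Filled markers count regions of any library and open markers regions in all 4; the members run above all genes for any library (11.8% against 7.37% at 1 kb) and at or below them for all 4 libraries, except at 1 kb (1.18% against 1.12%).

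RefSeq promoter sequences (GRCm38.p6, the assembly of mm10) with an annotated start and strand were matched for 66 members, and for 17492 protein-coding genes. A summit lay within 1 kb of the start of 7 of these members (10.6%, exact interval 4.37 to 20.6) against 7.44% of all such genes, and within 1 kb of the far end of 1 (1.52%) against 1.23%. The 7 were Rpl39, Rpl14, Rps27l, Rpl10, Rpl24, Rpl10a and Rpl13. Summits were upstream of the start at 6 of them, and 423 bp downstream at Rpl24. For Rps14, Rpl36 and Rps29 no strand was at hand, so start and far end were not told apart. The following 4 promoters are shown because a called region at the gene's end covers part of each, from 250 bases before the start to 20 after it, on the gene's strand. Capitals mark the bases inside the region. The region of Rps27l, which lies outside the 1 kb window from the gene's end, also reaches into the bases before its start, and that promoter is not printed.
Rpl14: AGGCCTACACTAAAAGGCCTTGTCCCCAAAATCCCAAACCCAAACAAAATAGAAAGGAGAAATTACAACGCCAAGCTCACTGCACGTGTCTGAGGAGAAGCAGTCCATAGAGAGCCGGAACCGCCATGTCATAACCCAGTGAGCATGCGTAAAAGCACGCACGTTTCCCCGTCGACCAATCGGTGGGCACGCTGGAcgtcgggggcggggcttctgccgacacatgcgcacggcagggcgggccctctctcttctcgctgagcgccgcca
Rpl39: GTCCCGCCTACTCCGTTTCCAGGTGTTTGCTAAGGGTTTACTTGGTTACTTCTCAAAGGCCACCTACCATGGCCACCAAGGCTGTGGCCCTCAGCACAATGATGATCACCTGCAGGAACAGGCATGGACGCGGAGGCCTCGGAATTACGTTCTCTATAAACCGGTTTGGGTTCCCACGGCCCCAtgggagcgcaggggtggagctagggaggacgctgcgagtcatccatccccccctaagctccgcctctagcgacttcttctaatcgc
Rpl10a: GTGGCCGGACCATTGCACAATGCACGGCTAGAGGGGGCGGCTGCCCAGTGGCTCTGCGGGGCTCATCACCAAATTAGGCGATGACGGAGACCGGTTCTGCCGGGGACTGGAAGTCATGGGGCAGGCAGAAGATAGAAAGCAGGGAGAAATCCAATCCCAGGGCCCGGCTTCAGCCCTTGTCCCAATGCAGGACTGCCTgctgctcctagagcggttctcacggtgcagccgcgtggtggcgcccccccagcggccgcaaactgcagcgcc
Rpl10: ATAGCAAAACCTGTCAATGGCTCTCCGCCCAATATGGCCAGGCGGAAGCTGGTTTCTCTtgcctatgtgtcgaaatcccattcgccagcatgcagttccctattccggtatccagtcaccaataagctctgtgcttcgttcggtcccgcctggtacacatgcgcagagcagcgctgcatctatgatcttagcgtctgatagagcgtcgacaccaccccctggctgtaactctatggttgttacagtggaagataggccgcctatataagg
The stretches are chr9:120571267-120571536 (plus strand), chrX:37085203-37085472 (minus), chr17:28328221-28328490 (plus, the first of the starts of Rpl10a) and chrX:74270566-74270835 (plus), in the same order. The region covers 196, 184, 198 and 59 bases of them, and the summit lies within the stretch for Rpl14 and Rpl39.

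The AP-1 motif TGANTCA, searched on both strands of the 300-base windows, was found in none of the promoters of the 7 members with a summit near the start, and in 2 of the 66 members (3.03%), against 8.12% of all genes. The 2 were Rpl9 and Rpl22, which owned no region. The related CRE motif TGACGTCA was found for 5 members (7.58%) against 2.54%, among them Rpl13, 24 bases before the start, and Rpl26. The region of Rpl13 did not reach its promoter window, and that of Rpl26 lay 2.10 kb beyond the far end with a fold of 4.04 in siChst7 replicate 1 alone. A motif match is a description of letters and not a binding site, and regions outside these windows were not searched.

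The ETS and YY1 motifs and the CTTTT tract were found in a larger share of members than of all genes, and the CCAAT and TATA motifs in a smaller share. The ETS motif CCGGAAG was found for 24 of 66 members (36.4%) against 12.9%, and the YY1 motif AAGATGG for 10 (15.2%) against 7.18%. The CCAAT box (GATTGG or its complement) was found for 11 (16.7%) against 20.7%, and the TATA motif TATAAA for 7 (10.6%) against 14.8%. In the printed stretches CCAATC begins 75 bases before the start of Rpl14 and 100 before that of Rpl10a, and TATAAA 96 before that of Rpl39. Of the 9 members with a region and an annotated start, 3 held the ETS motif, 3 the CCAAT box and 2 the CRE motif. The YY1 and TATA motifs were each found for 1 of these 9, and the AP-1 motif and the CTTTT tract for 0. The tract CTTTT, searched on the gene's strand from 10 bases before to 20 after the start, was found for 5 members (7.58%) against 3.20%. Only this exact string was searched, so the count does not tell how many members' mRNAs begin with a pyrimidine tract. Member promoters held a median of 21 CpG, against 13 for all genes, at a GC content of 56.6% against 56.3%.

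The number of members with a region overlapped between siControl and siChst7. In siControl replicates 1 and 2 there were 8 and 6 such genes (9.41% and 7.06%, against 15.9% and 14.7% of all genes). In siChst7 replicates 1 and 2 there were 9 and 4 (10.6% and 4.71%, against 21.9% and 12.5%). The mean was 7 ± 1.41 (SD, n = 2) in siControl and 6.5 ± 3.54 (SD, n = 2) in siChst7, a difference of -0.5 (p = 1 by two-sided exact permutation, where 0.333 is the smallest p). Its sign turned without siControl replicate 1 (0.5) or siChst7 replicate 2 (2). Per 1000 peaks of a list the members held 1.55 and 1.37 peaks in siControl and 1.08 and 0.845 in siChst7. These groups did not overlap, and the mean difference of -0.496 gave the smallest p the design allows (p = 0.333 by two-sided exact permutation). Of the members 0 owned a region called in both libraries of 1 group and in neither of the other, a class held by 0.795% of all genes for siControl and 1.81% for siChst7.

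The share of member peaks at gene ends varied more within groups than between them. It was 7 of 10 peaks (70%, exact interval 34.8 to 93.3) and 2 of 8 (25%, 3.19 to 65.1) in siControl, and 3 of 11 (27.3%, 6.02 to 61.0) and 3 of 4 (75%, 19.4 to 99.4) in siChst7. All owned peaks gave 12.5%, 11%, 13.1% and 10.6% in the same libraries. The group means were 47.5% ± 31.8 (SD, n = 2) and 51.1% ± 33.7 (SD, n = 2), which differed by 3.64 points (p = 0.667 by two-sided exact permutation). The direction turned when siControl replicate 2 was left out (-18.9 points) or siChst7 replicate 2 (-20.2 points). Within each library the members' share exceeded that of all owned peaks, by 14.0 to 64.4 points in 4 of 4 libraries with a mean of 37.5 (two-sided exact sign-flip permutation p = 0.125, the smallest 4 libraries allow). In siControl replicate 2 and siChst7 replicate 1 the members' interval held the share of all owned peaks. The libraries also shared regions: both end peaks of siControl replicate 2 lay in the regions of Rpl10a and Rps15a, called in siChst7 replicate 1 too. Members had 11.7% of their nearest genome within 1 kb of an end, against 4.66%, and its part in the excess was not tested.

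**Figure D4:**
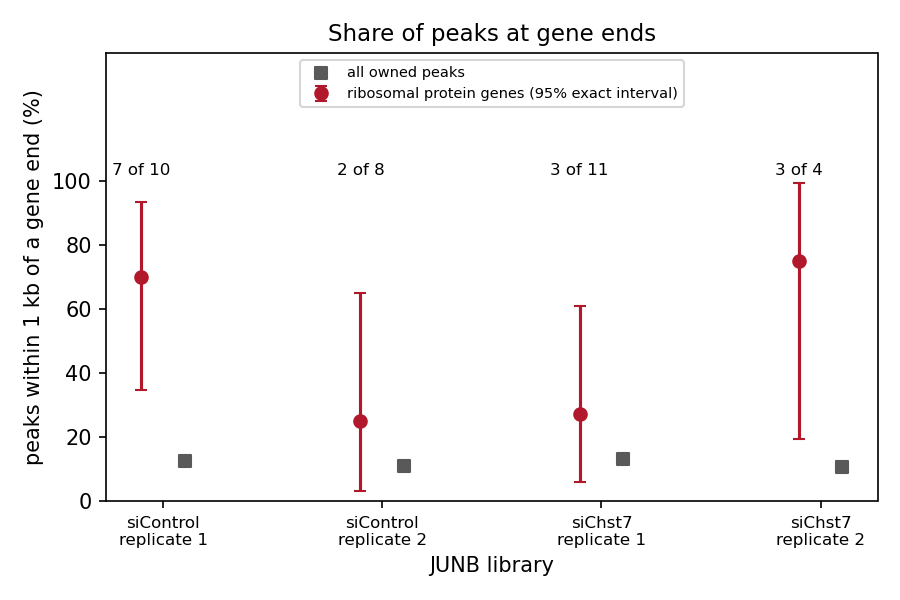
Share of peaks (vertical axis, %) with a summit within 1 kb of the owner's nearest end in each JUNB library, for peaks of ribosomal protein genes (circles, exact Clopper-Pearson 95% intervals, counts above) and for all owned peaks (squares). The circles lie between 25% and 75% with wide intervals, and the squares between 10.6% and 13.1%.

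Other genes of protein synthesis and turnover, taken as lists chosen with earlier results of these data known, stood on both sides of the share of all genes. Of all genes 25.1% owned a region and 8.32% one in all 4 libraries, and 13.9% of all owned regions lay at gene ends. The median length of nearest genome ran from 17.2 kb (mitochondrial ribosomal protein genes) to 62.3 kb (mTOR control), against 46.4 kb for all genes. Mitochondrial ribosomal protein genes owned regions at 16 of 78 genes (20.5%), with 7 of 30 regions at gene ends (23.3%) and 5 genes with a region in all 4 libraries. Among these 5 were Mrps23, Mrps27 and Mrpl1, whose regions of highest mean fold lay 29.4, 30.3 and 4.41 kb away. Proteasome genes gave 13 of 40 (32.5%), with 6 of 19 regions at gene ends (31.6%) and no gene with a region in all 4 libraries.

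Translation factor genes gave 17 of 38 (44.7%), with 9 of 25 regions at gene ends (36%) and 5 genes in all 4 libraries. Eif4e, which encodes the cap-binding protein, had a region 0.397 kb from its end in all 4 lists with a mean fold of 6.93. Eef1g, a subunit of the elongation factor that recharges eEF1A, had one 5.14 kb away with a mean fold of 25.1. Ribosome assembly genes gave 4 of 29 (13.8%), with Polr1a, the largest subunit of RNA polymerase I, in all 4 libraries. Genes of mTOR control of translation gave 4 of 14 (28.6%), among them Rptor with 5 regions and Rheb with 2. At gene ends the densities were 26.9 regions per Mb for mitochondrial ribosomal protein genes, 41.8 for proteasome genes and 67.3 for translation factors (exact Poisson interval 30.8 to 128). The interval of translation factors lies above the 19.3 of all genes, and those of the other named lists, ribosomal protein genes included, hold it.

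Copies of ribosomal protein genes are common in the genome, and values at members with near-identical copies are uncertain. Of 303 annotated ribosomal protein pseudogenes (symbols with -ps), 6 (1.98%) had a summit within 1 kb, against 0.977% of all 10442 pseudogenes. For regions in all 4 libraries these were 3 of the 303 and 27 of the 10442. The sources used here do not say how reads that fit several places were treated. Small nucleolar RNA genes lay inside 28 members, of which 5 owned a region, while 14 of all 85 members and 25.1% of all protein-coding genes did.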

How the data were processed

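Peak lists of 4 JUNB CUT&RUN libraries were used, 2 for each siRNA, matched to libraries by the peak names they carry. Reads were handled with Bowtie2 and MACS3 on mm10, per the submitters' processing notes. Versions, settings and the use of a control library in peak calling were not given in the sources used here. In the narrowPeak layout, which has no header, the authors deposited for each peak a fold enrichment (a ratio over local background), a p-value and a q-value as −log10, and a score, which was not used. The lowest −log10 q was near 2. Strand, start and promoter letters came from RefSeq GRCm38.p6, the assembly of mm10; coordinates are 1-based. A region's position is the median summit of its peaks, and a peak's owner is that of its region. The genome nearest to a gene is the stretch around its ends within 100 kb that is closer to them than to any other end. Members, gene lists and alternatives were chosen with earlier results of these data known. Named genes were members with a region in all 4 libraries or at a gene end, the 5 with the highest mean fold and those with most regions. Regions in 2 or 3 libraries, neighbours, genes of other lists and members without a region were named after their values were seen. Without read counts, a list that lacks a region does not show that signal there was absent. Intervals cover counting error only and treat genes or regions as independent. Library values were compared by exact permutation of the 4 libraries. The steps were tested on simulated lists. Scripts ran under Python 3.11.15 with pandas 2.3.3, SciPy 1.17.1, Matplotlib 3.10.9 and NumPy 2.4.6.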

Additional observations from a re-analysis of the deposited data

How the results depend on the processing

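Over 14 alternatives the share of member regions at gene ends ran from 33.3% to 61.9%, within the wide exact interval of the main setting. The mean excess over all owned peaks ran from 15.1 to 45.4 points. Some alternatives also moved the share of all owned regions. At a 2.5 kb window the shares were 61.9% and 22.3%, at 500 bp 38.1% and 9.68%, and with assignment within 20 kb 47.6% and 22.9%. With each list cut to 4735 peaks, 9 members owned a region in any library (10.6% against 18.8% of all genes). Of the members 5 had a summit at an own end (5.88% against 4.28%). Then 1 each owned one in both siControl, both siChst7 and all 4 libraries, the last against 6.97% of all genes. The count for both siControl libraries was 2 with 50% reciprocal overlap, 2 at a q of at most 0.001 and 1 at a fold of at least 5. For both libraries of a group, the share of all genes was not computed under the alternatives. The count for all 4 libraries was 1 with summits and 100 bp on each side (against 6.07% of all genes). It was also 1 at a fold of at least 5 (against 7.10% of all genes, which was 8.32% in the main setting). Regions given by annotated starts only gave 4 of 66 members in both siChst7 libraries and 4 of 66 in all 4. In all 4 libraries 8.87% of all genes with an annotated start had such a region. Assignment by annotated starts turned the group difference in the gene-end share to -5.00 points and that in genes per library to 1.5. The difference in genes per library was 0 at a fold of at least 5 and at equal list length. Leaving out a library of the other group left the counts at 4 for both siControl and 2 for both siChst7 libraries. Leaving out a library of the same group left the count of its single other library (6 or 8 for siControl, 4 or 9 for siChst7). Leaving out each library gave 2 to 4 members for all libraries left (against 8.37% to 10.4% of all genes). Likewise it gave 5 to 10 members with a summit at an own end (against 5.05% to 7.15% of all genes). Leaving out each library gave group differences of -20.2 to 27.5 points and of -3.00 to 2.00 genes. With a replicate block the differences were 3.64 points and -0.5 genes (exact permutation p = 1 for each). Replicate numbers were not taken as pairs: over 2785 regions in all 4 lists, replicate deviations in log2 fold correlated by 0.063 between groups. The alternatives for genes per library were added after seeing the data.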
